A study of Mus musculus with 55 samples.

Results

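The solute carrier (Slc) genes on the arrays were followed through 5 populations of the B lineage sorted from mouse bone marrow. Members were all genes whose array annotation symbol starts with Slc and a digit: 141 probe sets with 1 such symbol, 109 of them from the first array set and 32 from the second (b), stood for 111 genes of the 6137 genes with 1 symbol on both sets. A further 4 probe sets with several symbols were left out. Each gene was read by its brightest probe set over all preparations, which lay in the first set for 89 genes and in the b set for 22.

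RNA from 26 preparations was hybridised to both array sets. The mature B cells were gated as B220hi and sIgM+ (5 preparations, sorts 1, 3, 8, 9 and 11) and the immature B cells as B220low and sIgM+ (5, sorts 1, 2, 8, 9 and 11). Small pre-BII cells (5, sorts 1, 3, 8, 9 and 10) and large pre-BII cells (5, sorts 1, 2, 8, 9 and 10) shared the gate B220+ CD25+ sIg- and differed in size. The pre-BI cells were B220+ and c-kit+ (6 preparations, sorts 1, 2, 3, 8, 9 and 10). Strain, age and the number of animals behind a sort were not given in the sources used here, so p-values measure the spread between sorts, which may be technical. The deposited unit is a linear intensity that can be negative, and all values below are intensities after quantile normalisation within an array set.

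Solute carriers are membrane proteins that move nutrients, ions and metabolites across the plasma membrane and the membranes of organelles. Some exchange one substrate for another, some use the sodium or proton gradient, and others let a substrate flow down its own gradient. Family 25 sits mainly in the inner mitochondrial membrane and links the cytosol with the matrix. In the bone marrow, pro-B and large pre-B cells divide, small pre-B cells have left the cycle while the light chain locus is rearranged, and mature B cells rest. Dividing lymphocytes are known for high uptake of amino acids, glucose and iron.

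Background was judged from the negative intensities: the noise limit, 2 robust standard deviations, was 251 (first set) and 319 (b set). A gene counted as above background when at least 3 preparations of a population exceeded it. By this rule 48 of 111 Slc genes (43.2%) were above background, against 3100 of 6137 genes (50.5%) with 1 symbol, and 63 were not. Pre-BI cells had 38 genes above background, large pre-BII cells 35, small pre-BII cells 32, immature B cells 36 and mature B cells 41. The rule asked for 3 of 6 preparations in pre-BI cells and 3 of 5 in the others. All genes were not counted by population, so these counts are not ranked. In all 5 populations 29 Slc genes were above background, and 7 in a single one. Just inside the rule were 7 genes with exactly 3 preparations above the limit, among them Slc2a1 with a mean of 279 in mature B cells. Just outside were 9 genes with 2, among them Slc22a23 with a mean of 223 in mature B cells. Intensities depend on the probes, so no gene's level is set against another's.

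The arrays differed in brightness, with a ratio of the highest to the lowest trimmed mean of 5.6 (first set) and 4.22 (b set). Negative values made up 19.6 to 27.8% of a first-set array and 33.9 to 42.4% of a b-set array. The 18S control of the first set read 156 to 18619 in sorts 1 to 3 and -224 to 68 in sorts 8 to 11. In the b set it read -39 to 16530 and -39 to 263 in these sorts, so the ranges overlapped there. It was uneven within sorts 1 to 3, with 156 in immature B sort 2 and 18619 in pre-BI sort 3 of the first set. Differences are also given within sorts 1 to 3 and within sorts 8 to 11. One first-set array labelled as a second run of mature B sort 1 held the same 6584 values as that of mature B sort 11. It was counted once, as sort 11. Its 18S control read -38, within the first-set range of sorts 8 to 11 and below that of sorts 1 to 3. The latter range was taken without this array. Which of the labels is right was not tested further. If the array came from sort 1, the mature B group would hold 4 independent preparations in the first set. Without mature B sort 11, Slc6a6 in mature B against pre-BI cells and Slc25a1 in large pre-BII against pre-BI cells lost their calls (adjusted p = 0.0678 and 0.0521), as did Slc5a6, Slc25a15 and Slc66a2 over the 5 populations (adjusted F p = 0.118, 0.0634 and 0.0691). Of 11 B lineage markers on the arrays 10 were above background, Pax5 being the exception, and their summed intensity had medians of 28502 to 52969 by population. Markers of other cells were present too. The erythroid marker Hba-a1 averaged 8675 to 11208 in every population, and 4 of 7 erythroid markers were above background. None of them rose or fell in the 5 comparisons. Car2 of this list averaged 1527 in pre-BI, 682 in large pre-BII and 171 in small pre-BII cells. It averaged 605 in immature B and 1257 in mature B cells. Of 14 granulocyte and monocyte markers 7 were above background, with summed medians of 4947 in small pre-BII cells to 12562 in pre-BI cells, and Lyz2 and Ngp fell in large pre-BII against pre-BI cells. Prtn3 of the same list rose in immature B cells (mean 285, against -5.85 in small pre-BII cells, adjusted p = 0.0442) and in mature B cells (417, against 76.9 in pre-BI cells, adjusted p = 0.000493). Gzma, of T and NK cells, averaged 1333 in pre-BI cells and 136 to 353 in the other populations. Cd3e, the other marker of this list above background, went the other way at first. It averaged 3.88 in pre-BI, 241 in large pre-BII and 243 in small pre-BII cells and did not pass in any of the 5 comparisons. The remaining 7 of 9 T and NK markers, Cd3d, Cd3g, Cd4 and Cd8a among them, were not above background. Of 4 plasma cell markers Xbp1 alone was above background (176 to 416 by population), and Jchain averaged 110.3 to 177. The part of these cells in the results below was not tested. In a sorted pool, fewer cells of a type and less RNA per cell cannot be told apart.

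Tests were run with limma on log2 values over all 10229 probe sets above a low floor (87.6 and 6.89 for the first and b sets) in at least 5 preparations, and p-values were adjusted over all of them by Benjamini-Hochberg. The verbs rose, fell and changed are used for an adjusted p under 0.05. Of the Slc genes 86 were tested, all 48 above background among them. Over the 5 populations 18 of 86 (20.9%) changed by the moderated F test, against 14.8% of all probe sets tested. With each gene of the arrays read by its brightest probe set, 19.5% of 5019 genes changed, so the share of Slc genes was near the background. Where a test passed in any comparison or over the 5 populations, the gene was above background for 19 of 20. The exception was Slc9a8, a sodium and proton exchanger of the Golgi, whose highest preparation read 228.

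**Figure D1:**
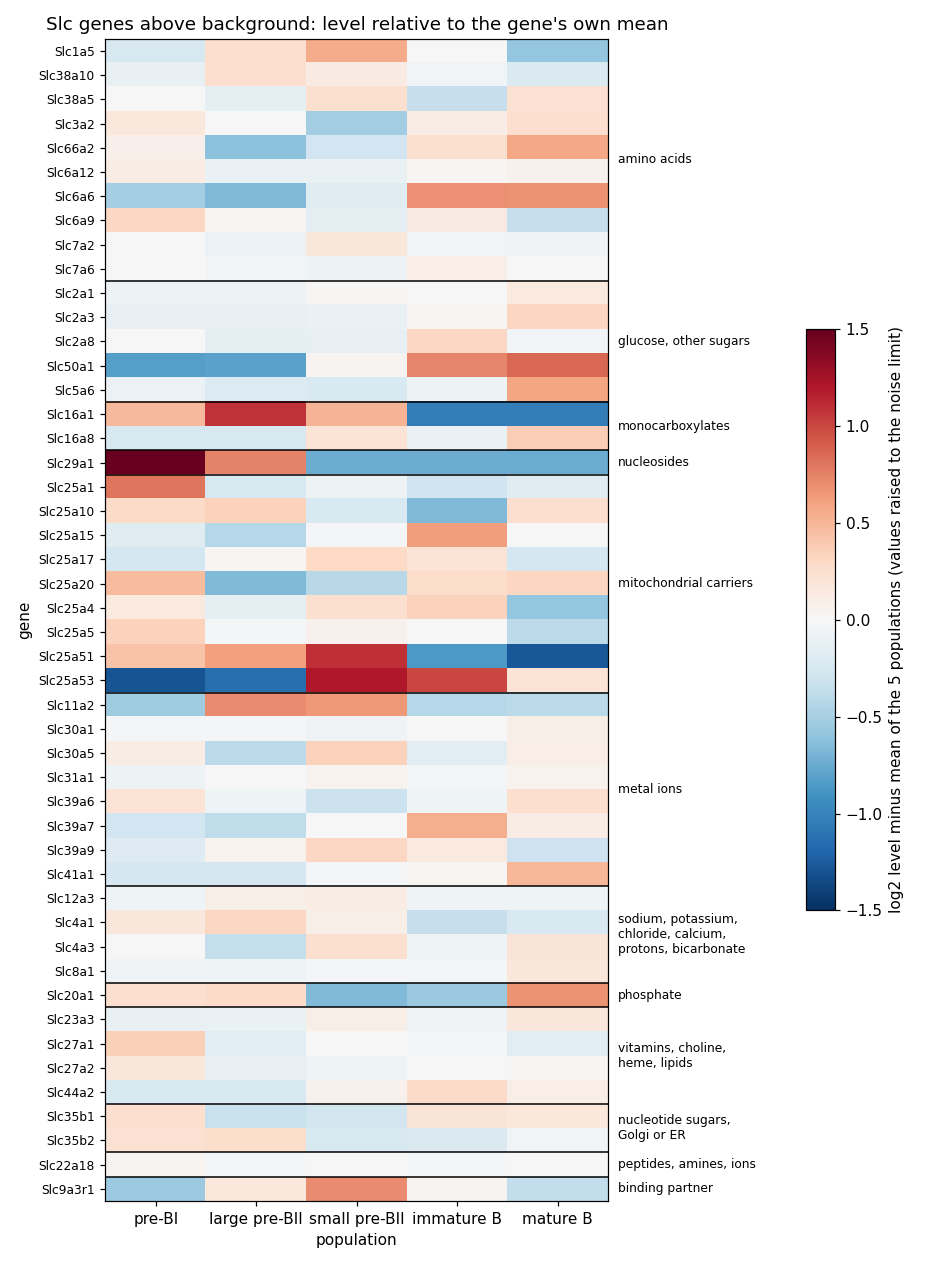
Mean log2 level in each population (columns) minus the gene's own mean over the 5 populations, for the 48 Slc genes above background (rows), grouped by substrate, with values under the noise limit raised to it. Slc29a1 and Slc16a1 were high early and at the limit late, and Slc25a53 went the other way at small pre-BII cells.

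In large pre-BII against pre-BI cells 1 Slc gene rose (0.87% of all probe sets rose) and 2 fell (0.997% fell). In small against large pre-BII cells 1 rose (2.03% of all) and 1 fell (3.27%). In immature B against small pre-BII cells none rose (1.31%) and 3 fell (0.88%). In mature against immature B cells none rose (0.616%) and none fell (0.733%), with 11 genes at an unadjusted limma p under 0.05. In mature B against pre-BI cells 6 rose (4.78%) and 5 fell (6.03%). The median log2 difference of the 86 members in this last comparison was 0.10, against 0.04 over all probe sets tested. Read by gene, 2.77%, 6.75%, 2.93%, 1.75% and 14.1% of 5019 genes changed in these 5 comparisons. The shares of the 86 members were 3.49%, 2.33%, 3.49%, 0% and 12.8%. The comparisons share populations and are not independent of each other.

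The promoters of the 3 members with the smallest p over the 5 populations among those in the sequence table are shown, because these genes had the clearest steps between populations. Each is 300 bases of RefSeq on GRCm38.p6, from 250 bases before the annotated start to 50 after it, 5' to 3' on the gene's strand, and where a gene has several starts the most upstream one was taken. Capitals mark matches on either strand to 4 motifs searched, CACGTG (E-box), GGGCGG (GC box), CCAAT and TATAAA. Slc29a1 is at chr17:45599569-45599868 on the minus strand (1 of 8 starts), Slc16a1 at chr3:104638414-104638713 on the plus strand, and Slc25a53 at chrX:137038253-137038552 on the minus strand (1 of 2 starts).
Slc29a1: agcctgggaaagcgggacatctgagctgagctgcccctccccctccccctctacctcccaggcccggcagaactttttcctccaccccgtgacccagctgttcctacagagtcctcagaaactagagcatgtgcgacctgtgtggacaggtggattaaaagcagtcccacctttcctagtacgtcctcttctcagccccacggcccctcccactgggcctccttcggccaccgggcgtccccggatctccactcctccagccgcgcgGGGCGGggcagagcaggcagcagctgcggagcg
Slc16a1: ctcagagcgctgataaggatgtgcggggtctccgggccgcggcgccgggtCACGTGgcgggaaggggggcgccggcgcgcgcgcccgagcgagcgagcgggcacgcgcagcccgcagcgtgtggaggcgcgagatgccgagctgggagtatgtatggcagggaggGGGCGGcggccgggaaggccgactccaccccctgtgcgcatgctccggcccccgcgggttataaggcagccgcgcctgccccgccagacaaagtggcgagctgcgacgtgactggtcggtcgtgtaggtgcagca
Slc25a53: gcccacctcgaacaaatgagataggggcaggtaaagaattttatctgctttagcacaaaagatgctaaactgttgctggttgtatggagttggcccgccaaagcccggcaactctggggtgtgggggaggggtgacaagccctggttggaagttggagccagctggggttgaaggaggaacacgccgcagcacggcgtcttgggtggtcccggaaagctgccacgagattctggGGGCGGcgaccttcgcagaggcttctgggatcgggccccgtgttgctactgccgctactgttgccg

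Slc16a1 holds 1 CACGTG, which 7.15% of the 32851 promoter windows searched hold, and each of the 3 holds 1 GGGCGG, which 35.7% hold. CCAAT (37.4% of the windows) and TATAAA (13.6%) have no match in these 3. Windows of chromosome 18, which holds Slc66a2, were left out. Of the 17 members above background that changed over the 5 populations, 11 were among the windows searched. All 11 held GGGCGG, against 48 of 82 other members (58.5%), and 3 held CACGTG (Slc16a1, Slc20a1 and Slc25a1), against 8 of 82 (9.76%). The 82 also hold members not above background, so the 2 groups differ in more than whether a gene changed. These matches describe the letters of 1 window per gene, and the genes that changed were known when they were counted.

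Among the carriers of nucleosides, Slc29a1 marked the early stages. Its product is the equilibrative nucleoside transporter ENT1, which lets nucleosides and drugs built like them cross the plasma membrane. Small pre-BII cells read -629, -466, -438, -223 and -216, against 259, 343, 813, 1436 and 1689.6 in large pre-BII cells. No small pre-BII preparation was above the noise limit, every large pre-BII preparation was, and the groups did not overlap. The level in small pre-BII cells was at least 2.81-fold lower, comparing log2 means with values raised to the noise limit (fitted log2 difference -3.01 ± 0.48 SE, limma adjusted p = 4.32e-05).
Mature B cells read -598, -521, -436, -293 and -158, against a lowest of 413, a median of 1183 and a highest of 3575 in pre-BI cells. This was at least 4.68-fold lower in mature B cells (log2 -3.75 ± 0.46, adjusted p = 1.92e-07). Immature B cells lay at -771 to -333, so all 15 preparations after the large pre-BII stage were below zero. The early preparations varied widely, with a standard deviation of 1139.6 around a mean of 1487 in pre-BI cells (n = 6). Its relative Slc29a2 was not above background and read -258 to 133 over the 26 preparations.

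Of 12 nucleoside salvage and folate cycle genes on the arrays, 10 were above background and 11 tested. In mature B against pre-BI cells 1 of 11 rose and 7 fell, against 4.78% and 6.03% of all probe sets, with a median log2 difference of -1.77 (0.04 over all). In small against large pre-BII cells 4 fell and none rose, against 3.27% and 2.03% of all, with a median of -0.99 (0.06 over all). The genes of this and the later lists were read by their brightest probe set. Read so, 14.1% of 5019 genes changed in mature B against pre-BI cells and 6.75% in small against large pre-BII cells, more than the shares of probe sets. Thymidine kinase Tk1 averaged 36.96 in small pre-BII cells and 1162 in large pre-BII cells (log2 -3.23, adjusted p = 4.47e-07). Tyms, thymidylate synthase, averaged 145 in small and 602 in large pre-BII cells (log2 -2.03, adjusted p = 0.000514). Tk2, the mitochondrial thymidine kinase, rose in mature B cells, with a mean of 693, against 163 in pre-BI cells (adjusted p = 6.07e-05).

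Of the 2 monocarboxylate carriers on the arrays, both above background, Slc16a1 fell one stage later than Slc29a1. It encodes MCT1, which moves lactate and pyruvate together with protons. Immature B cells read 34.7, 60.2, 61.7, 93.4 and 108, against 297, 737, 859.9, 1010.3 and 1141 in small pre-BII cells. No immature B preparation passed the noise limit of 251, all small pre-BII preparations did, and the groups did not overlap. The level was at least 2.93-fold lower in immature B cells (log2 -2.99 ± 0.36, adjusted p = 7.49e-07).
Mature B cells read -65.5, 2.07, 27.4, 101 and 159.6, against a lowest of 353, a median of 871 and a highest of 911 in pre-BI cells (at least 2.89-fold lower, adjusted p = 1.49e-07). Large pre-BII cells read 915, 969, 1022, 1165 and 1507, every one above every pre-BI preparation, but the log2 difference of these groups did not pass the test. The second probe set of Slc16a1, on the b set, placed the fall earlier: it averaged 74.4 ± 158 in small pre-BII cells and 644 ± 449 in large pre-BII cells (± SD), a log2 difference of -3.44 with a limma adjusted p of 0.0222. It also fell in mature B cells against pre-BI cells (adjusted p = 0.0176). Both probe sets thus read low in immature and mature B cells and differed in small pre-BII cells, where none of the 5 preparations of the b set passed its limit.
Slc16a8, a second carrier of the family, averaged 466 ± 197 in mature B cells and 242 ± 132 in pre-BI cells and did not pass.

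MCT1 needs a chaperone, basigin (Bsg) or embigin (Emb), to reach the membrane. Emb averaged 114 in large pre-BII cells and 677 in pre-BI cells (log2 -2.36, adjusted p = 0.000119), and 121 in mature B cells (adjusted p = 1.2e-05 against pre-BI cells). Bsg did not pass in any of the 5 comparisons, with means of 325 in mature B and 435 in pre-BI cells. Ldha, a lactate dehydrogenase subunit, averaged 2929 in large pre-BII and 6175 in pre-BI cells and fell (log2 -1.04, adjusted p = 0.00913). Of 11 tested enzymes and chaperones of glucose and lactate metabolism, 1 rose and 4 fell in mature B against pre-BI cells (4.78% and 6.03% of all probe sets), with a median log2 difference of -0.42.

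**Figure D2:**
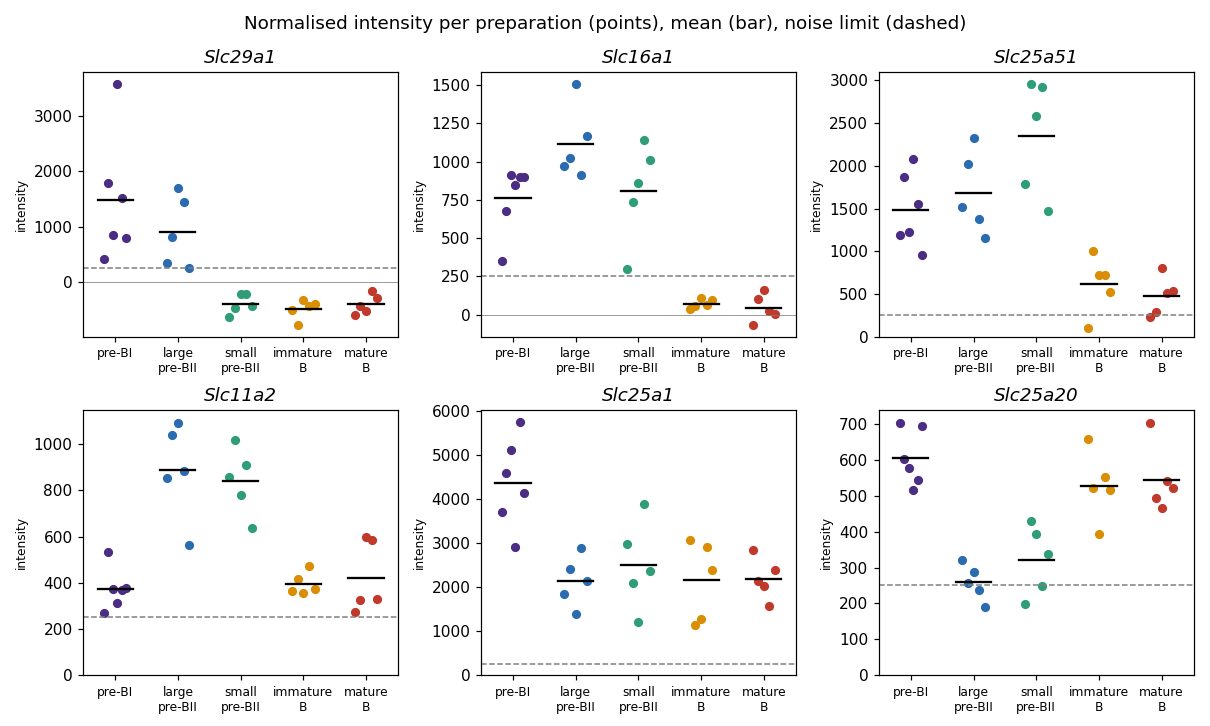
Intensity of each preparation (points), population mean (bar) and noise limit (dashed) for 6 Slc genes that fell in at least 1 comparison, by population from pre-BI to mature B. Slc29a1 lies below zero from small pre-BII cells on and Slc16a1 below the limit from immature B cells on, while in the pre-BII populations the mean of Slc25a20 is lowest and that of Slc11a2 highest.

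Mitochondrial carriers were represented by 15 genes, of which 9 were above background and all 15 tested. Over the 5 populations 6 of them changed, against 19.5% of all genes by their brightest probe set. They did not move together. Slc25a53, a family member without an established substrate, had the sharpest rise. Small pre-BII cells read 2843, 2972, 3702, 3737 and 4171, against 559, 619, 631, 809.7 and 849 in large pre-BII cells. The groups were far apart, and the level was 5.04-fold higher in small pre-BII cells (log2 2.33 ± 0.27, adjusted p = 1.79e-07).
Immature B cells stayed at 2571, 2909, 2983, 3286 and 3321. Mature B cells read 1453, 1598, 1613, 1755 and 2305, against a lowest of 270.5, a median of 666 and a highest of 1045 in pre-BI cells. Mature B cells were 2.82-fold higher than pre-BI cells with no overlap (adjusted p = 7.3e-05). The step from immature to mature B cells did not pass, although every mature preparation lay below every immature one.

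Slc25a51, whose human counterpart carries NAD into mitochondria, peaked in small pre-BII cells and fell after them. Immature B cells read 104, 519, 721, 726 and 1001, against 1474, 1792, 2582, 2923 and 2957 in small pre-BII cells, with no overlap (3.87-fold lower in immature B cells, log2 -2.21 ± 0.42, adjusted p = 0.00119). Mature B cells read 232, 287, 515, 538 and 805, against a lowest of 954, a median of 1392 and a highest of 2079.6 in pre-BI cells (3.26-fold lower, adjusted p = 0.00264). A second probe set averaged 529 ± 108 in immature B and 1075 ± 186 in small pre-BII cells and fell too (log2 -1.03, adjusted p = 0.0432). In mature B against pre-BI cells the second probe set did not pass (465 ± 89.4 in mature B cells, 589 ± 196 in pre-BI cells, adjusted p = 0.672).

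Slc25a1 was highest in pre-BI cells. It exports citrate from the matrix, which feeds fatty acid synthesis in the cytosol. Large pre-BII cells read 1375, 1846, 2138, 2399.7 and 2889, against a lowest of 2909, a median of 4362 and a highest of 5741 in pre-BI cells. All large pre-BII preparations lay below all pre-BI preparations, the nearest by a narrow gap (2.06-fold lower, log2 -1.04 ± 0.28, adjusted p = 0.0441). This call was lost in 14 of 26 fits that left out 1 preparation, with an adjusted p of up to 0.158 without large pre-BII sort 8. Mature B cells read 1569, 2014, 2147, 2389 and 2830.1 and were 1.98-fold lower than pre-BI cells (adjusted p = 0.0168, and 0.0624 without mature B sort 9).

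Slc25a20 carries acylcarnitines into the matrix for fatty acid oxidation. Large pre-BII cells read 189.6, 239, 256, 289 and 322, against a lowest of 515, a median of 590.4 and a highest of 703 in pre-BI cells. The groups did not overlap, and 3 of 5 large pre-BII preparations passed the noise limit (2.21-fold lower, log2 -1.24 ± 0.28, adjusted p = 0.00957). In immature B cells the values were 393 to 658 and in mature B cells 466 to 704. In the same step Lyz2 averaged 3033 in large pre-BII and 5503 in pre-BI cells, and Gzma 353 and 1333 in these populations. Cd3e went the other way, with 241 in large pre-BII and 3.88 in pre-BI cells, and did not pass. The part of other cell types in the falls of Slc25a1 and Slc25a20 was not tested. A second probe set had the same order of means in this step but did not pass (251 ± 109 in large pre-BII, 403 ± 136 in pre-BI cells, adjusted p = 0.585).

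Slc25a5, an adenine nucleotide translocase that exchanges ADP for ATP, averaged 3399.7 ± 738 in mature B cells and 5635 ± 1155 in pre-BI cells (SD, n = 5 and 6). It fell 1.66-fold with overlapping groups (log2 -0.73 ± 0.19, adjusted p = 0.00749), since pre-BI sort 3 at 3702 lay within the mature B range of 2095 to 3850.4. Both other probe sets of the gene fell as well (adjusted p = 0.000103 and 0.000208). Probe sets of Slc25a5 and of its close relative Slc25a4 are marked by the array's maker as shared within a family, so their signals may mix. Slc25a4 averaged 355 ± 51.3 in mature B and 610.2 ± 165 in pre-BI cells and did not pass in the comparison as fitted, but passed with sorts 1 to 3 against 8 to 11 as a block (adjusted p = 0.0489) and with the floor at the 60th percentile or the noise limit (0.0399 and 0.024).
Slc25a10, the dicarboxylate carrier, and Slc25a15, an ornithine carrier, changed over the 5 populations but in no single comparison. Slc25a10 averaged 311 ± 214 in immature B cells and 482 to 711 in the other populations (adjusted F p = 0.0196, and 0.0929 and 0.116 without immature B sorts 1 and 2). Slc25a15 averaged 1165 ± 207 in immature B cells and 570.3 to 742 elsewhere, with an adjusted F p of 0.0499 that was lost in 22 of 26 fits without 1 preparation, up to 0.151 without immature B sort 9. Slc25a17, a peroxisomal member of the family, averaged 1987 to 3083 and did not pass.

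**Figure D3:**
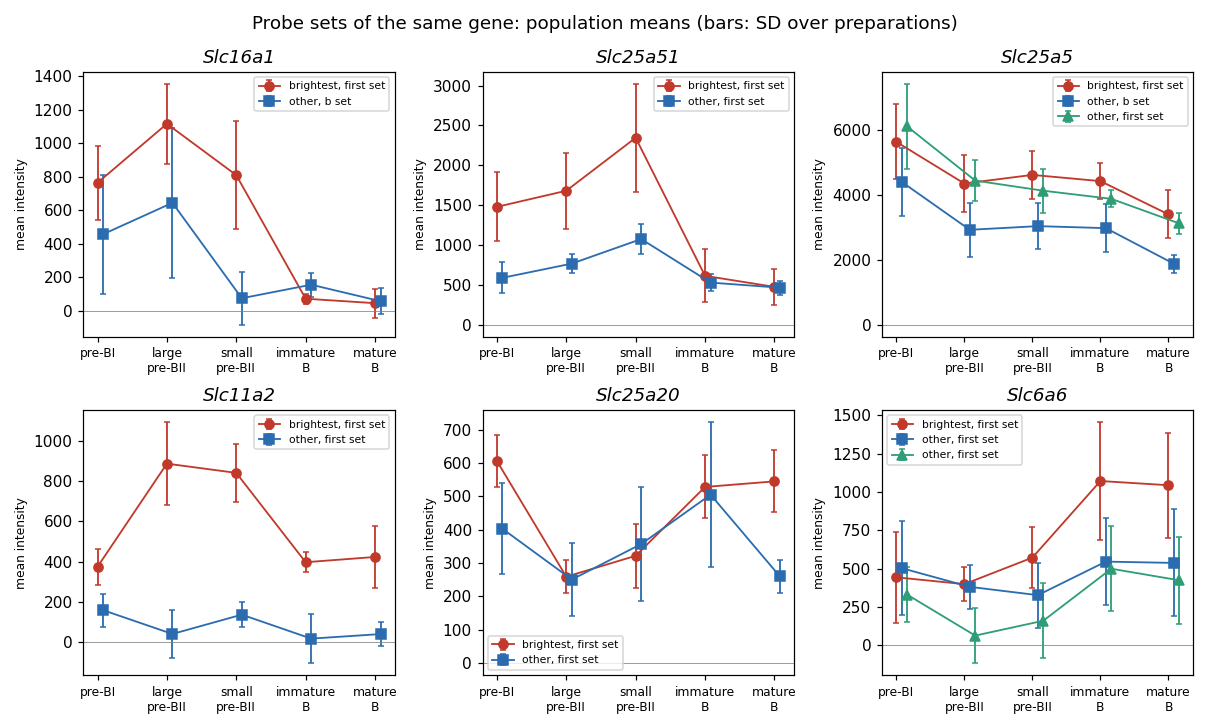
Population means with SD (vertical axis, intensity) of all probe sets of 6 genes that changed, by population. The brightest probe set and the others run in parallel for Slc25a5, differ at small pre-BII cells for Slc16a1, and differ for Slc11a2, whose second probe set averages 16.2 to 158, under the noise limit of 251.

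Metal ion carriers counted 13 genes, 8 of them above background and 10 tested. Over the 5 populations Slc11a2 was the 1 member that changed, against 19.5% of all genes by their brightest probe set. It encodes DMT1, which moves iron(II) and other divalent metals with protons out of endosomes. Large pre-BII cells read 565, 853, 886, 1039 and 1094, against a lowest of 270.2, a median of 372 and a highest of 534 in pre-BI cells. The groups did not overlap, and the level was 2.37-fold higher in large pre-BII cells (log2 1.24 ± 0.28, adjusted p = 0.00957).
Small pre-BII cells stayed at 637, 782, 859.9, 908 and 1019. Immature B cells read 356, 363, 372, 418 and 473, below every small pre-BII preparation (2.11-fold lower, log2 -1.08 ± 0.29, adjusted p = 0.0401). This second call was lost in 9 of 26 fits without 1 preparation, with up to 0.123 without small pre-BII sort 3. The second probe set averaged 16.2 to 158 by population, with 1 of 26 preparations above the limit, and its log2 difference of large pre-BII minus pre-BI cells was -0.36 (adjusted p = 0.842), opposite in sign.
Of 8 tested genes of iron and metal handling none rose or fell in any of the 5 comparisons, in which 0.616 to 4.78% of all probe sets rose and 0.733 to 6.03% fell. Tfrc, the transferrin receptor that brings iron to these endosomes, averaged 303 in large pre-BII and 210.3 in pre-BI cells (adjusted p = 0.831). Slc11a1, the related carrier of macrophages, was not above background and read below zero in all 26 preparations. The zinc carriers Slc30a5 and Slc39a6 averaged 1418 to 2246 and 394 to 625 by population and did not pass. Among the other members of the class, the zinc carrier Slc30a1 and the copper carrier Slc31a1 counted as above background through mature B cells alone. They averaged 256 to 367 and 134 to 234 by population and did not pass (adjusted F p = 0.848 for each). The magnesium carrier Slc41a1 averaged 484 in mature B and 159 in pre-BI cells and narrowly missed the threshold in that comparison (log2 1.46, adjusted p = 0.0519). It passed there with 75th percentile scaling (0.0459) and with the floor at the 60th percentile or the noise limit (0.0237 and 0.019). Slc39a7 and Slc39a9, zinc carriers of internal membranes, averaged 383 to 709.8 and 325 to 601.

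Carriers of glucose and other sugars counted 8 genes, 5 of them above background. All 8 were tested, and 3 of the 8 rose in mature B against pre-BI cells, where 4.78% of all probe sets tested rose. Slc50a1, the mouse member of the SWEET sugar carriers, read 759, 1472, 1886, 1892 and 1991 in mature B cells, against a lowest of 303, a median of 480.1 and a highest of 677 in pre-BI cells. The groups did not overlap (3.21-fold higher in mature B cells, log2 1.69 ± 0.35, adjusted p = 0.00075). The means were 483 for pre-BI, 486 for large pre-BII, 928 for small pre-BII, 1516 for immature B and 1600.3 for mature B cells, and no single step between neighbours passed.
Slc2a3, the glucose carrier GLUT3, read 228, 279, 308, 458 and 463 in mature B cells, of which 4 passed the limit. In pre-BI cells it had a lowest of -56.3, a median of 51.8 and a highest of 249.6, none above the limit. It rose at least 1.35-fold, and the groups overlapped (log2 1.54 ± 0.37, adjusted p = 0.00394). Slc2a1, GLUT1, read 147, 210.1, 262, 269 and 506 in mature B cells, 3 of them above the limit, and -42.8 to 189 in pre-BI cells (at least 1.18-fold higher, adjusted p = 0.0216, and 0.0902 without mature B sort 8). The call of Slc2a1 ended with the floor at the noise limit (adjusted p = 0.263), and its change over the 5 populations did not pass (adjusted F p = 0.0808). That of Slc2a3 over the 5 populations ended at the noise limit too (adjusted F p = 0.0631), while its difference between mature B and pre-BI cells still passed (0.0197). Both counted as above background through mature B cells alone, so their presence among the rising genes above background follows in part from that choice. The second probe set of Slc2a3 had no preparation above the limit. Slc2a8, a carrier of the same family in internal membranes, averaged 372 to 575 and did not pass.
Slc5a6, which family number placed here and which takes up biotin and pantothenate, changed over the populations (adjusted F p = 0.0372) with 451 ± 98.7 in mature B and 219.7 ± 119 in pre-BI cells. No single comparison passed for it, and the F call was lost in 9 of 26 fits, with up to 0.118 without mature B sort 11. With the floor at the noise limit it passed in mature B against pre-BI cells (log2 0.68, adjusted p = 0.000493) and in mature against immature B cells (log2 0.67, adjusted p = 0.00462). The muscle and fat glucose carrier Slc2a4 and the liver carrier Slc2a2 were not above background.

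**Figure D4:**
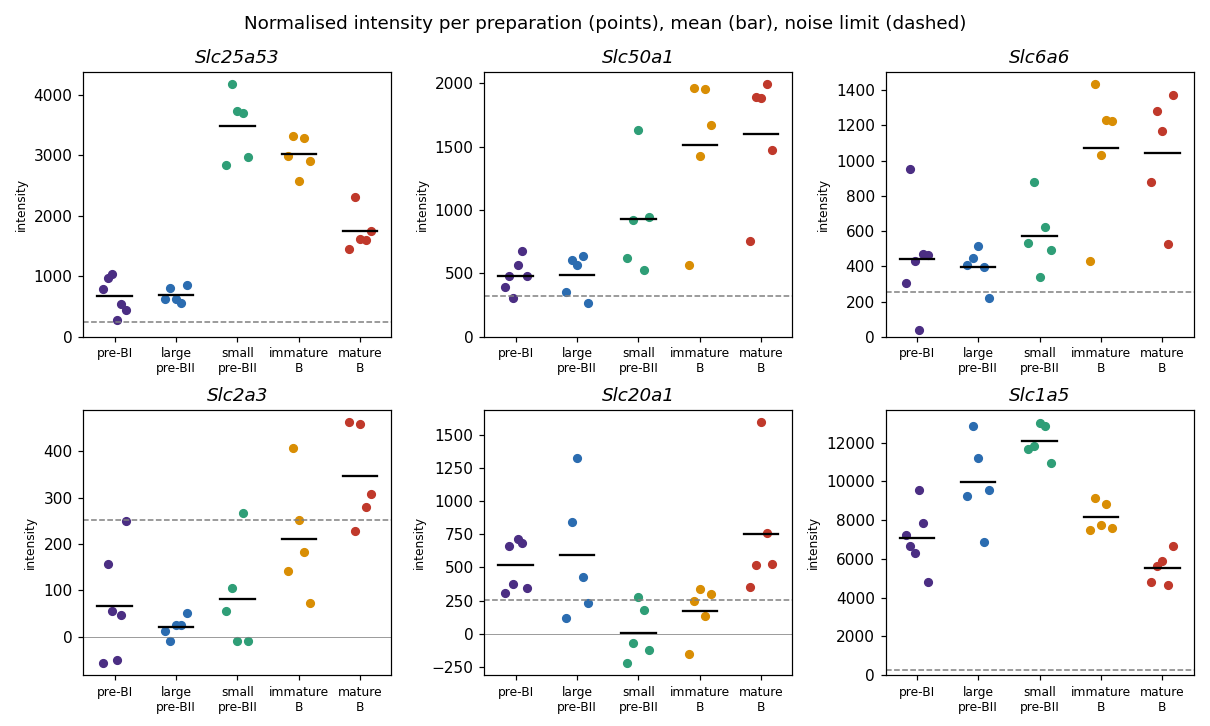
Intensity of each preparation (points), population mean (bar) and noise limit (dashed) for 6 Slc genes by population from pre-BI to mature B. Slc25a53 steps up at small pre-BII cells, Slc50a1 and Slc6a6 are high in immature and mature B cells, Slc2a3 passes the limit mainly in mature B cells, Slc20a1 is low in small pre-BII cells and Slc1a5 peaks there.

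Amino acid carriers, classed by family number alone, were the most numerous class, with 23 genes, 10 above background and 18 tested. Over the 5 populations 3 of them changed, against 19.5% of all genes by their brightest probe set. Slc1a5, the glutamine and neutral amino acid exchanger ASCT2, was above the limit in all 26 preparations. Small pre-BII cells read 10949, 11663, 11835, 12847 and 13036, and mature B cells 4653, 4785, 5634, 5892 and 6657. Immature B cells read 7489 to 9124, large pre-BII cells 6852 to 12847 and pre-BI cells 4785 to 9572. The change over the 5 populations passed (adjusted F p = 5.26e-05) while no single comparison did. With sort number as a replicate block, which pairs immature B and small pre-BII cells of the same sort, the fall in immature B cells passed (log2 -0.69, adjusted p = 0.0128).
Slc6a6, the taurine carrier, read 526, 879, 1167, 1281 and 1369.9 in mature B cells, against a lowest of 38.8, a median of 446 and a highest of 954 in pre-BI cells. It rose 2.27-fold with overlap (log2 1.44 ± 0.42, adjusted p = 0.0213). Without pre-BI sort 8 or mature B sorts 3, 8 or 11 the adjusted p was 0.0732, 0.0587, 0.0524 and 0.0678. The other 2 probe sets of Slc6a6 did not pass, with means of 537 and 424 in mature B cells, against 503 and 330.2 in pre-BI cells.
Slc66a2, placed here by family number and of uncertain substrate, changed over the populations (adjusted F p = 0.0338, up to 0.09 without large pre-BII sort 2, lost in 8 of 26 fits). It averaged 318 ± 76.3 in large pre-BII and 737 ± 109 in mature B cells. Slc3a2, the heavy chain that brings several amino acid carriers to the membrane, averaged 488 in small pre-BII cells and 791 to 943 in the other populations and did not pass. Slc7a6, one of its partners, averaged 588 to 678 (adjusted F p = 0.994). Slc38a5, Slc6a9 (a glycine carrier), Slc38a10, Slc6a12 and Slc7a2 were above background too and did not pass, with means of 166 to 584 by population. Slc7a1, a cationic amino acid carrier, was not above background, nor were 12 others of the class.
Of 8 tested genes of amino acid sensing and synthesis, 2 fell and none rose in mature B against pre-BI cells (6.03% and 4.78% of all probe sets). They were Psat1 (414 in mature B, 1983 in pre-BI cells, adjusted p = 5.19e-06) and Phgdh (458 in mature B, 1921 in pre-BI cells, adjusted p = 1.53e-05), both enzymes of serine synthesis.

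Slc20a1, a sodium-coupled phosphate importer, was the 1 of 3 carriers of phosphate, sulfate and citrate above background. Small pre-BII cells read -221, -120.2, -68.9, 175 and 277, against 119, 235, 425, 845 and 1325 in large pre-BII cells. The groups overlapped and the difference narrowly missed the threshold (log2 -1.74 ± 0.54, adjusted p = 0.0546, and 0.0311 with sorts 1 to 3 against 8 to 11 as a block), while the change over 5 populations passed (adjusted F p = 0.0052). Mature B cells read 352, 515, 528, 756 and 1596, above all immature B preparations at -150.4 to 339. That difference did not pass (log2 1.72 ± 0.54, adjusted p = 0.153), but passed with sort number as a replicate block, in which these populations are paired (log2 1.95, adjusted p = 0.00134).

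Carriers of sodium, potassium, chloride, calcium, protons and bicarbonate counted 14 genes, 4 above background and 10 tested. Slc12a3, a sodium chloride cotransporter known from the kidney, changed over the populations (adjusted F p = 0.00754), a call that ended with the floor at the 60th percentile and at the noise limit, where the adjusted F p was 0.38. It counted as above background through large pre-BII cells alone. It was above the limit of 319 in 3 of 5 large pre-BII and 2 of 5 small pre-BII preparations, with 72.6 to 431 in large pre-BII cells, and in none of immature B (-245 to -61.0), mature B (-275 to 0.315) or pre-BI cells (-204 to 259). The red cell anion exchanger Slc4a1 averaged 544 to 801 by population and did not pass. The erythroid marker Hba-a1 did not pass in any of the 5 comparisons either. Slc4a3 and Slc8a1, an anion and a sodium and calcium exchanger, averaged 442 to 673 and 225 to 355. Slc9a8 had the only called difference among the members not above background, with 159 to 228 in mature B and 13.1 to 134 in pre-BI cells (adjusted p = 0.00267); no fold is given, since both are under the limit.
Of 12 tested subunits of the sodium pump and the vacuolar proton pump, which set the gradients many carriers use, 2 rose and 2 fell in mature B against pre-BI cells (4.78% and 6.03% of all probe sets). Atp1b1, a sodium pump beta subunit, averaged 1195 in mature B, 6521 in immature B and 13160 in small pre-BII cells, and fell in mature B against immature B cells (log2 -2.48, adjusted p = 7.36e-08). Atp6ap1, an accessory subunit of the proton pump, averaged 1322 in mature B and 474 in pre-BI cells (adjusted p = 0.00383).

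The remaining classes held no called member. In the class of vitamins, choline, heme and lipids 4 of 9 genes were above background, the fatty acid carriers Slc27a1 and Slc27a2, the choline carrier Slc44a2 and Slc23a3. Slc27a2 and Slc23a3 averaged 224 to 319 and 189.7 to 294 by population. Slc44a2 averaged 400.1 ± 118 in mature B and 224 ± 102 in pre-BI cells, and Slc27a1 234 ± 174 in mature B and 475 ± 206 in pre-BI cells. Of 9 Golgi and endoplasmic reticulum carriers of family 35, Slc35b1 (888 to 1205 by population) and Slc35b2 (455 to 651) were above background. Of 10 carriers of peptides, amines and organic ions Slc22a18 alone was, with means of 195 to 254. Slc9a3r1 and Slc4a1ap match the naming rule but encode binding partners of carriers. The first averaged 1903 ± 735 in small pre-BII and 897 ± 511 in pre-BI cells and did not pass, and the second was not above background.

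**Figure D5:**
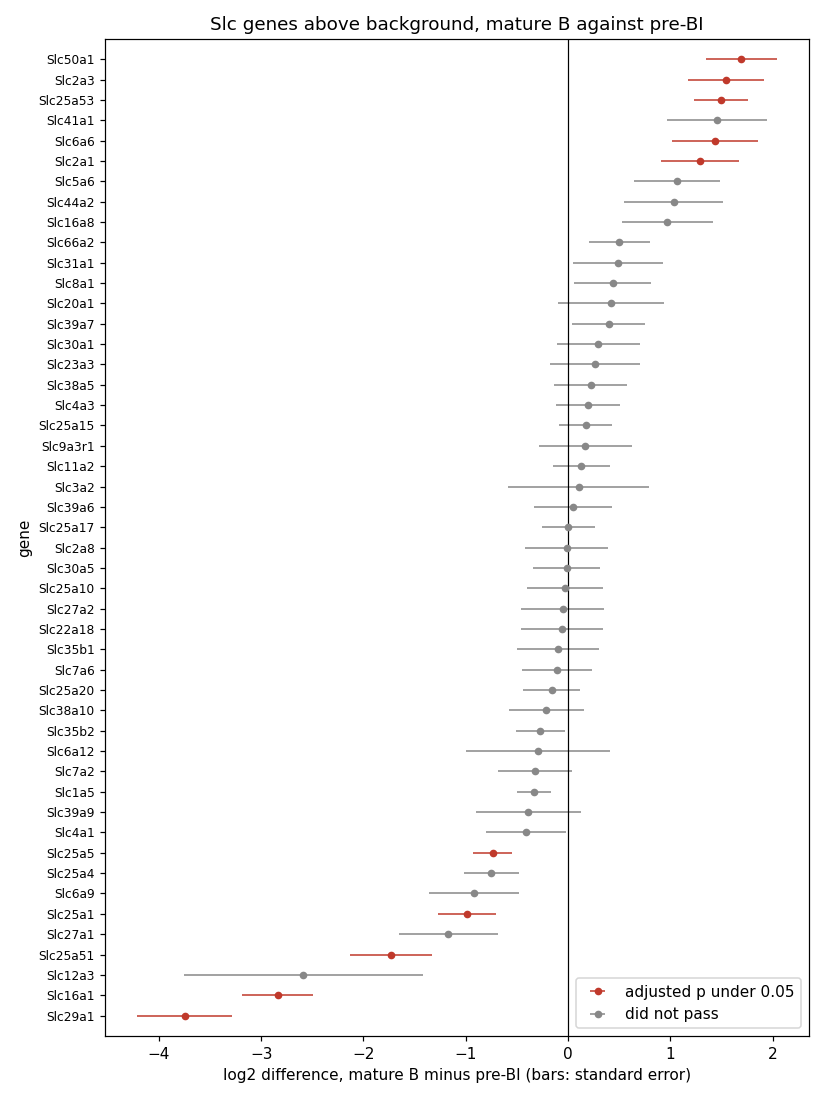
Fitted log2 difference of mature B minus pre-BI cells with its standard error (horizontal axis) for the 48 Slc genes above background, sorted. The 10 that passed (red) are 5 on the higher side, led by Slc50a1, and 5 on the lower side, ending with Slc29a1 at -3.75. Slc9a8, not above background, is not drawn.

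Among the 18 Slc genes that changed over the 5 populations, the highest mean was in mature B cells for 6 (33.3%), in large pre-BII cells for 4 (22.2%), in pre-BI and small pre-BII cells for 3 each (16.7%) and in immature B cells for 2 (11.1%). Of all 1509 probe sets that changed, 22.2% were highest in mature B, 25.6% in large pre-BII, 21.1% in pre-BI, 13.4% in small pre-BII and 17.6% in immature B cells.

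All 19 called differences had the same sign within sorts 1 to 3 and within sorts 8 to 11, where the fits have 2 or 3 preparations per population. The differences had been called on these same sorts pooled, so the shared sign is no independent test. Within sorts 8 to 11, 10 of them passed, and within sorts 1 to 3, 3 passed. These 3 were Slc25a53 in small against large pre-BII cells (log2 2.28, adjusted p = 0.00948, and 2.37 within sorts 8 to 11), and, in mature B against pre-BI cells, Slc16a1 (-2.67, adjusted p = 0.0323, and -3.04 within sorts 8 to 11) and Slc29a1 (-3.29, adjusted p = 0.022, and -4.21). Sizes differed most for mature B against pre-BI cells in Slc25a53 (0.97 within sorts 1 to 3, 2.05 within sorts 8 to 11) and Slc25a51 (-2.44 and -1.26 in the same sorts). On the intensities as deposited, with no normalisation, 7 of 19 passed. All 19 passed with sorts 1 to 3 against sorts 8 to 11 as a block.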

How the data were processed

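RNA of 26 sorted preparations had been hybridised to 2 oligonucleotide array sets, and the deposited values are linear intensities, 1 per probe set and array. The authors' scaling and image software are not given in the sources used here. Of 55 arrays 54 were kept, since 1 duplicated another, and repeat arrays of a preparation were averaged. Control probe sets were dropped, each set was quantile normalised, values were floored at the 40th percentile of the set and log2 transformed, and probe sets over the floor in at least 5 preparations were fitted with limma 3.58.1 (R 4.3.3; lmFit, eBayes with trend), per set, all populations in 1 fit. Benjamini-Hochberg adjustment ran over both sets within each comparison. Folds compare mean log2 values raised to the noise limit, and "at least" marks a dimmer population with all preparations under it. The fit was tested on simulated data with 200 changes planted in bright probe sets only. That run does not cover genes near the noise limit.

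Gene symbols came from the platform annotation, and all 111 are current in RefSeq. Substrate classes followed the family number. Named were Slc genes above background that passed a test and the 3 brightest above background of each class, with others above background added after their values were seen; of other lists, 2 passing members and the 2 brightest markers, with Tfrc, Bsg, Tk2, Atp6ap1 and others added likewise. The members, lists and classes were chosen with earlier results of these data known. Same-numbered sorts counted as paired where every pair's correlation of deviations was over 0.1. This held in large pre-BII and pre-BI (0.11 to 0.30), immature B and small pre-BII (0.14 to 0.25), and mature and immature B (0.12 to 0.21). The other 2 comparisons met it in part. Mature B and pre-BI had 3 of 4 pairs over 0.1 (0.06 to 0.24), and small and large pre-BII 1 of 4 (0.0032 to 0.24). Alternatives covered scaling, floor, filter, probe set, batch, replicate block and each left-out preparation.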

Additional observations from a re-analysis of the deposited data

Results flagged for a closer look

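Within a population, 14 of 82 sets of preparations held 1 value far from the others, judged on log2 values raised to the noise limit. A set with only 1 preparation above the limit is always flagged, because the others become equal. The usual chance rate of about 1 in 20 therefore does not hold here, and no excess is claimed. In 5 sets 1 preparation stood low. Slc25a5 read 2094.7 in mature B sort 3, against 3611 to 3850.4 in the other mature B preparations. In immature B sort 1, Slc50a1 read 564 (others 1427 to 1961) and Slc6a6 read 433 (others 1034 to 1434). Slc16a1 read 353 in pre-BI sort 1 (others 674 to 911), and Slc66a2 read 233 in small pre-BII sort 1 (others 418 to 474).

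In 9 sets 1 preparation stood high, mostly of genes near the noise limit. In small pre-BII cells these were Slc20a1 in sort 8 (277, others -221 to 175), Slc2a3 in sort 9 (267, others -8.59 to 106), Slc2a1 in sort 1 (348, others -8.19 to 130.3) and Slc12a3 in sort 1 (529, others -124 to 348). In immature B cells they were Slc5a6 in sort 8 (413, others 61.7 to 252), Slc2a3 in sort 2 (407, others 73.1 to 252) and Slc2a1 in sort 8 (334, others 40.9 to 183). Slc5a6 stood high in large pre-BII sort 2 (273, others -26.6 to 148), and Slc2a1 in mature B sort 8 (506, others 147 to 269).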

How the results depend on the processing

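The counts of changed Slc genes were 3 in large pre-BII against pre-BI, 2 in small against large pre-BII, 3 in immature B against small pre-BII, 0 in mature against immature B, 11 in mature B against pre-BI cells and 18 over the 5 populations. On values as deposited they were 0 in large pre-BII against pre-BI, 1 in immature B against small pre-BII, 4 in mature B against pre-BI cells and 6 over the populations. Over all probe sets the share of higher calls was then 20.3%, against 38.4% after normalisation, in small against large pre-BII cells, and 70.7% against 59.8% in immature B against small pre-BII cells. Within sorts 1 to 3, in the order of the first sentence, the counts were 0, 1, 0, 0, 2 and 4, and within sorts 8 to 11 large pre-BII against pre-BI had 0, mature B against pre-BI 6 and the 5 populations 6; these fits hold fewer samples. In mature against immature B cells 2 genes passed with the floor at the 60th percentile or at the noise limit (Slc25a4 and Slc5a6), and 1 with sorts 1 to 3 against 8 to 11 as a block (Slc25a10). The floor at the 25th percentile lost 5 of 19 called differences (Slc25a1 in large pre-BII against pre-BI, Slc11a2 in immature B against small pre-BII, and Slc2a1, Slc2a3 and Slc9a8 in mature B against pre-BI cells) and 5 of 18 calls over the populations. The floors at the 60th percentile and the noise limit each lost 1 difference (Slc2a1) and 2 calls over the populations (Slc2a3 and Slc12a3), and left Slc9a8 untested. Without the filter, Slc25a1 in large pre-BII against pre-BI cells was lost. With the sort as a replicate block the counts became 3, 3, 4, 1, 13 and 21, where Slc20a1 was the 1 in mature against immature B cells, and all 19 called differences passed. In the comparisons whose sorts met the pairing rule only in part, the block added Slc20a1 in small against large pre-BII (0.00633). It also added Slc41a1 and Slc44a2 in mature B against pre-BI cells (0.0119 and 0.0396). Over the populations it lost Slc25a15 (0.0709) and added Slc25a5, Slc25a17, Slc9a3r1 and Slc2a1. Without 1 preparation at a time the counts ranged over 2 to 3, 2 to 3, 2 to 3, 0 to 1, 9 to 12 and 15 to 19; the 1 was Slc25a10 without immature B sort 9 (adjusted p = 0.026) or sort 11 (0.0158). Of 19 called differences 14 passed without every one of the 26 preparations. By another probe set, 2 called differences had the opposite sign, Slc11a2 in large pre-BII against pre-BI cells (-0.36) and Slc16a1 in immature B against small pre-BII cells (1.54, adjusted p = 0.7). The causes were not tested. Signal over background limits the dim genes: 20.1% of b-set values passed the noise limit.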
